A study of Rattus norvegicus with 12 samples.

Results

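The injury and repair markers of the renal tubule described here are 10 genes chosen by symbol: Havcr1, Lcn2, Spp1, Clu, Sox9, Cd44, Cd24, Prom1, Anxa2 and Vgf. Their expression was measured by RNA sequencing in kidney tissue of 12 male Sprague-Dawley rats labelled wild type, with 3 rats in each of 4 groups. The paper does not say which part of the kidney was used. In the adenine group, adenine, a purine that leaves crystals in the tubules, was given by stomach tube for 3 weeks at a daily 220 mg/kg, and the control group received saline. In the UUO group (unilateral ureteral obstruction) the left ureter was tied and the kidney was taken after 2 weeks, and the sham group had the operation without the tie. The rats were bought at 8 weeks of age, and the 12 rats were different animals. The adenine model limits the comparison in that the agent reaches both kidneys by mouth, whereas UUO injures 1 side. Values were FPKM (fragments per kilobase of transcript, scaled to the mapped fragments of the sample), a level corrected for transcript length. The control and adenine groups shared a table of 22132 entries and the sham and UUO groups a table of 32623 entries. All 10 markers were listed once in each table. Since the tables were normalized separately, every change was taken within a table, and levels set across the tables are descriptive only.

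Proximal tubule cells carry out most of the reabsorption of the kidney and are readily damaged by crystals, toxins and obstruction. Damaged cells that survive lose transport proteins, flatten and switch on a set of genes that healthy tubules hardly use. Havcr1 encodes KIM-1, a surface receptor by which tubule cells take up dying neighbours, and Lcn2 encodes NGAL, a secreted carrier of iron-binding siderophores, and both proteins are used as urinary markers of kidney injury. Spp1 encodes osteopontin and Clu encodes clusterin, both secreted by stressed tubules. CD44 is a receptor for hyaluronan and osteopontin, CD24 and prominin-1 (CD133, from Prom1) are surface proteins of progenitor-like tubule cells, and SOX9 is a transcription factor of regenerating tubules. Annexin A2, from Anxa2, binds membranes and plasminogen, and Vgf encodes a granin-like neuropeptide precursor.

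Of the 10 markers, 6 were upregulated in the adenine model: Havcr1, Lcn2, Spp1, Clu, Cd44 and Anxa2. The same 6 symbols were upregulated in the UUO model. Here upregulated means an adjusted p under 0.05 by limma with Benjamini-Hochberg adjustment over all tested genes, and a log2 fold change of at least 2 on the scale of log2(FPKM + 0.1). Genes entered the test when they reached an FPKM of 0.5 in at least 3 of 6 samples, a filter that 9 markers passed in each model and Vgf did not. Over all genes tested, 10.7% were upregulated after adenine and 13.2% after UUO. With the fold change threshold set aside, Cd24 also rose in both models and Sox9 rose in the UUO model, which gave 7 and 8 markers, and this rule called 39.6% and 56.1% of all genes. Prom1 was the 1 marker that fell in each model without the fold threshold, a rule that called 19.9% and 14.4% of all genes as lower. With both thresholds no marker was called down by limma in either model, against 5.03% and 4.21% of all genes, and at an unadjusted p under 0.05 Prom1 alone was lower. The median log2 fold change of the 9 tested markers was 4.82 after adenine and 3.78 after UUO, beside 0.30 and 0.62 for all tested genes. Under median-of-ratios scaling, which sets these medians of all genes to 0.014 and 0.032, the same number of markers, 6 in each model, was upregulated. In bulk kidney tissue, more RNA in each cell of a type and more cells of that type cannot be told apart.

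**Figure D1:**
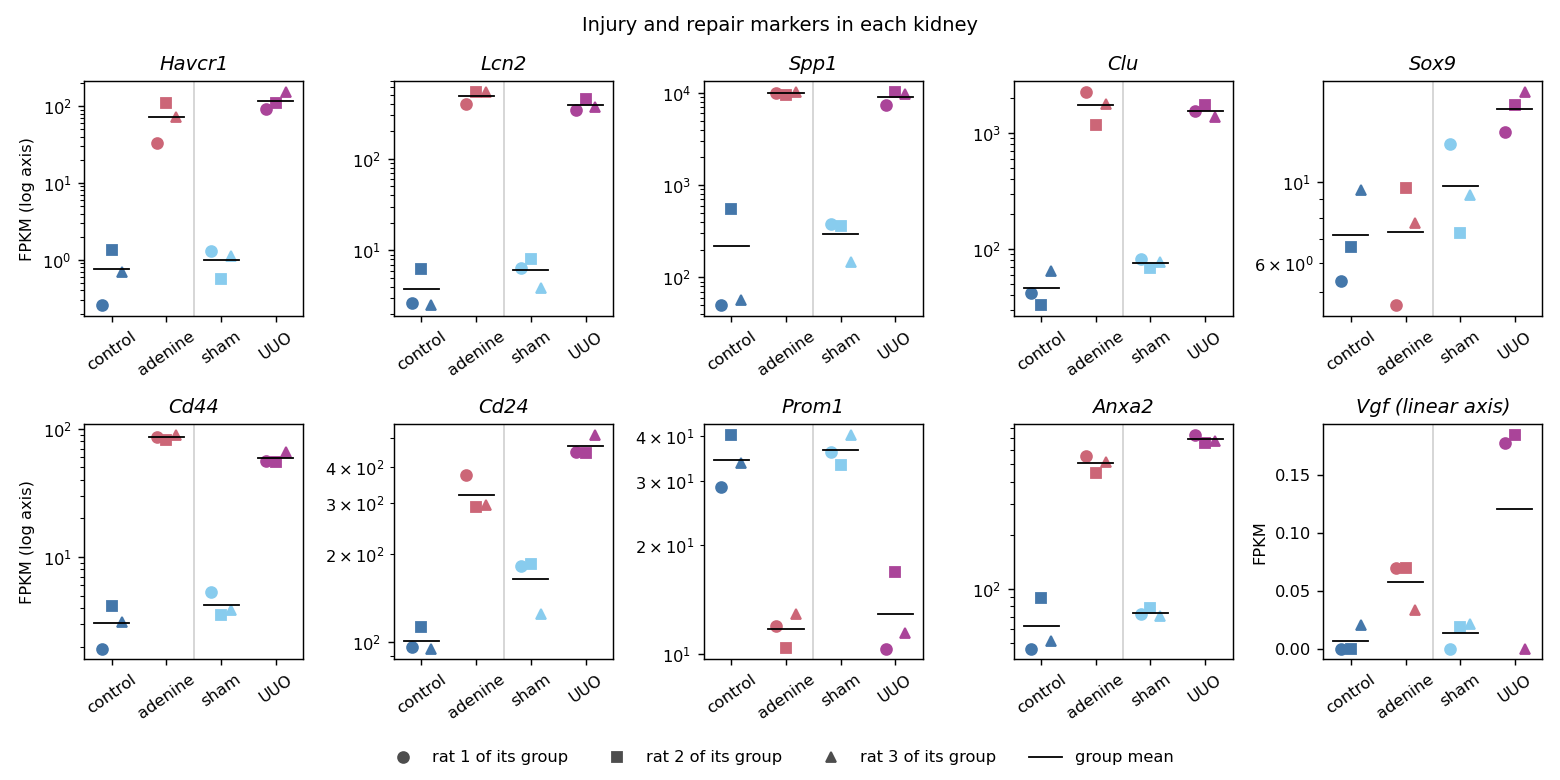
FPKM of each marker in each kidney, on a log axis except for Vgf, with the 3 rats of a group as separate symbols and a black line at the group mean. The 6 upregulated markers sit far above their controls and shams in all treated kidneys, Prom1 sits below them, and the control and adenine groups overlap for Sox9.

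The reference kidneys held the markers of kidney tubules, with a summed FPKM of 1509 to 1830 in the controls and 2185 to 2834 in the shams for 4 genes of the thick ascending limb (Umod, Slc12a1, Cldn16 and Kcnj1). These sums were 161 to 362 in the adenine group and 111 to 263 in the UUO group, with 1 and 3 of 4 genes downregulated. Collecting duct markers were downregulated for 2 and 3 of 7 genes. Markers of fibroblasts and myofibroblasts, among them Col1a1 and Acta2, were upregulated for 4 and 6 of 7 genes, with sums of 81.4 to 118 in the controls, 574 to 766 in the adenine group, 76.9 to 104 in the shams and 1072 to 2346 in the UUO group. The part of these shifts in the changes of the markers described here was not tested.

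Transcription start regions of the markers are shown because several of the markers changed together. RefSeq windows of the rat build GRCr8, from 250 bases before the start to 50 after it, were found for 8 of the 10 markers as 9 windows, with a pair of starts for Prom1 and no window for Sox9 and Clu. Both strands were searched for 8 motifs: AP-1 (TGANTCA), STAT (TTCNNNGAA), TEAD (ACATTCC), SOX (AACAAT), the cAMP response element (TGACGTCA), NF-kB (GGGANTTTC), the E-box (CACGTG) and C/EBP (TTGCGCAA). Among 33469 RefSeq windows, the share that held a match was 7.33% for AP-1, 8.87% for STAT, 4.03% for TEAD, 11.7% for SOX, 1.83% for the cAMP response element, 1.15% for NF-kB, 6.42% for the E-box and 0.17% for C/EBP. No match overlapped another in the windows below, which read 5′ to 3′ on the strand of the gene with matches in capitals.
Havcr1, chr10:31629528-31629827, plus strand: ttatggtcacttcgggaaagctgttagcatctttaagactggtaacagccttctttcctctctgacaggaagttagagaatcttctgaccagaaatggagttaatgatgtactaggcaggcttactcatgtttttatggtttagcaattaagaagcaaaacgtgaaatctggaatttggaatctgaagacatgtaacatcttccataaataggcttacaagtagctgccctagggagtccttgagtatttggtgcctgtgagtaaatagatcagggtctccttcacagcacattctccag
Lcn2, chr3:36081731-36082030, minus strand: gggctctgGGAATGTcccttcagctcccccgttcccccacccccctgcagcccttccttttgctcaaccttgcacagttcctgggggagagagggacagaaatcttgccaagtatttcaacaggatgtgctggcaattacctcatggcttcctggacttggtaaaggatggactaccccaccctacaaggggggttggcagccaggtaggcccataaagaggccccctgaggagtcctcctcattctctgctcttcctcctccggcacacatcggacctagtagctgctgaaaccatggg
Spp1, chr14:5619755-5620054, minus strand: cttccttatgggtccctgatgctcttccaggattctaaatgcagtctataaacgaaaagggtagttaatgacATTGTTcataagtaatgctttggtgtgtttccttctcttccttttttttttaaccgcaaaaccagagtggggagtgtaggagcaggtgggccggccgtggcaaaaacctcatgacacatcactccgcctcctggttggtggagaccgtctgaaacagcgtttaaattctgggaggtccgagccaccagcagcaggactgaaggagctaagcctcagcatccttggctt
Anxa2, chr8:78986002-78986301, plus strand: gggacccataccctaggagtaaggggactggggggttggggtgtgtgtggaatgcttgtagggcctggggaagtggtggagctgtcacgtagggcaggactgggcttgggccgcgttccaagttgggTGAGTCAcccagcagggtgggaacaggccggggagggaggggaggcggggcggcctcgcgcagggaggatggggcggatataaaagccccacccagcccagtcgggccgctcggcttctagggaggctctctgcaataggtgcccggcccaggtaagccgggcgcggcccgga
Prom1, chr14:71211389-71211688, plus strand: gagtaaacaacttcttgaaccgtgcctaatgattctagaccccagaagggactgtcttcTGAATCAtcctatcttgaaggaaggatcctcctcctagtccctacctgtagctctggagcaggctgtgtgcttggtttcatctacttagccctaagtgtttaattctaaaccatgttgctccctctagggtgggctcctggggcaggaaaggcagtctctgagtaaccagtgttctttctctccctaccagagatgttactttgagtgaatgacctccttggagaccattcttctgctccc
The Lcn2 window held the TEAD letters on the opposite strand, with the match beginning at -242 relative to the start. The Spp1 window held the SOX letters on the opposite strand at -178, and the Anxa2 window held an AP-1 match at -123. In Prom1, the marker that fell, the window printed here held an AP-1 match at -191. The windows of Havcr1, Cd44 and Cd24 and the other window of Prom1 held none of the 8 motifs. Vgf held a cAMP response element at -90 and an E-box at -65. No motif was found in the windows of more than 1 upregulated marker.

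Havcr1 was nearly silent in kidneys of the reference groups, with an FPKM of 0.256, 1.34 and 0.697 in the controls and 1.29, 0.557 and 1.12 in the shams. It stood at 32.8, 110 and 71.6 in the adenine group and at 91.8, 109 and 154 in the UUO group. All treated kidneys lay above all reference kidneys of their table, and the lowest adenine kidney was 24.6 times the highest control. The group mean was 93.6 times that of the controls in the adenine group and 120 times that of the shams in the UUO group. The log2 fold change was 6.43 (SE 0.61, adjusted p = 0.000231 by limma) in the adenine model and 6.80 (SE 0.32, adjusted p = 1.43e-05) in the UUO model. In the adenine kidneys the SD was 54.0% of the mean, and the rat with the highest Havcr1 was also the adenine rat with the highest sums of distal convoluted tubule and proximal tubule markers. Its summed FPKM of 4 distal convoluted tubule markers (Slc12a3, Pvalb, Calb1 and Trpm6) was 232, beside 23.3 and 28.2 in the other adenine kidneys. Its sum of 10 proximal tubule markers was 573, beside 186 and 309. The same kidney was not the highest for markers of the thick ascending limb (207, beside 362 and 161) or the collecting duct (103, beside 160 and 80.8). The part of these sums in the Havcr1 value was not tested.

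Il24, Lcn2, Ms4a4a and Il19 were among the 5 genes most like Havcr1, by Euclidean distance over the 12 samples among 13486 symbols tested in both tables, with each sample centred on its control or sham mean. Their distances on the log2 scale were 1.76, 2.69, 2.92 and 3.21. Il24, a cytokine of the IL-10 family, had a mean FPKM of 0.0946 in the controls and 21.4 in the adenine group, and of 0.199 in the shams and 41.9 in the UUO group. Il19, of the same cytokine family, was listed at 0.0001, the lowest value of that table, in the sham mean and reached 29.3 in the UUO group. Lcn2 was thus second of all symbols and Spp1 was 10 in the order, whereas Clu was 46, Cd44 was 78 and Anxa2 was 414. Prom1 stood at 12629 and Sox9 at 6951. The samples share library and scaling, so this likeness is a description.

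Timd2, a homolog of Havcr1 in the T-cell immunoglobulin and mucin family, is named here after its values were seen. In the adenine kidneys the FPKM of Havcr1 was 1.99 to 2.13 times that of Timd2, although Havcr1 itself spanned 32.8 to 110, and in the UUO kidneys the ratio was 1.82 to 1.88. In the control and sham kidneys the ratio was 0.0204 to 0.0952, so Timd2 was the more abundant gene there. Timd2 was 12.5, 14.8 and 10.3 in the controls and 15.4, 55.2 and 33.9 in the adenine group (log2 fold change 1.297, SE 0.44, adjusted p = 0.0386 by limma). It was 13.5, 18.7 and 19.9 in the shams and 50.3, 57.8 and 83.9 in the UUO group (1.86, SE 0.23, adjusted p = 0.000401). How reads shared by these homologs were divided was not examined, so the values of both are uncertain to that degree.

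Lcn2 had the largest change of the markers in the adenine model. Its FPKM was 2.68, 6.28 and 2.50 in the controls and 399, 538 and 529 in the adenine group. In the shams it was 6.45, 8.04 and 3.88, and in the UUO group 337, 447 and 363. No treated kidney came near its reference kidneys, since the lowest was 63.5 times the highest control and 41.9 times the highest sham. The log2 fold change was 7.08 (SE 0.35, adjusted p = 2.96e-05 by limma) in the adenine model, rank 22 of 15029 genes, and 5.99 (SE 0.26, adjusted p = 1.29e-05) in the UUO model, rank 30 of 15043. Neutrophils also make Lcn2. Of 6 neutrophil markers, 3 of 3 tested were upregulated after adenine and 4 of 4 after UUO. Csf3r in both models, S100a8 in the adenine model and Cxcr2 in the UUO model were below the filter level in every reference kidney. They entered the test only through the treated kidneys, which favours a call up, so these counts add little to the sums. S100a9 was above that level in every control. Elane was at the lowest value in all 6 sham and UUO kidneys. The summed FPKM of the 6 markers stayed between 14.1 and 26.5 in the adenine group and between 6.91 and 38.0 in the UUO group. In the controls and shams this sum was 1.14 to 2.49 and 0.304 to 1.57, and its part in the Lcn2 values was not tested.

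Neither receptor of NGAL in the list of partners was called up. Slc22a17, which encodes the receptor of NGAL-bound siderophores, was 12.4, 11.7 and 15.2 in the controls and 6.47, 3.81 and 6.03 in the adenine group, where it fell without passing the fold threshold (log2 fold change -1.28, SE 0.23, adjusted p = 0.00301). In the UUO model it did not pass, at 7.21, 7.00 and 7.26 in the shams and 8.46, 6.21 and 6.84 in the UUO group (-0.01, SE 0.14, adjusted p = 0.961). Lrp2 encodes megalin, the endocytic receptor that takes filtered NGAL up in the proximal tubule. It was 129, 99.9 and 105 in the controls and 6.61, 35.6 and 18.4 in the adenine group (-2.75, SE 0.56, adjusted p = 0.00521), and fell from 168, 164 and 175 in the shams to 31.6, 46.0 and 43.3 in the UUO group (-2.09, SE 0.15, adjusted p = 4.69e-05). Most proximal tubule markers were lower along with it. Of 10, 5 were downregulated after adenine and 6 after UUO. Slc5a12 was upregulated in the adenine model, from a mean of 0.733 to 8.81 (log2 fold change 3.998, SE 1.01, adjusted p = 0.0130). Its controls spread widely, at 1.81, 0.0254 and 0.362, beside 3.22, 10.7 and 12.5 in the adenine group. The call was thus made against low and uneven controls. In the other table, set beside these as description only, the shams stood at 10.2, 0.743 and 9.96. In the adenine model Slc5a2 stood at 2.78 without passing (adjusted p = 0.1002). The summed FPKM of the 10 markers was 3358 to 3551 in the controls, 186 to 573 in the adenine group, 3663 to 4200 in the shams and 301 to 588 in the UUO group.

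Spp1 was the most abundant of the markers in every treated kidney. Its FPKM was 49.5, 552 and 56.2 in the controls and 9980, 9409 and 10309 in the adenine group, and 378, 356 and 147 in the shams and 7351, 10313 and 9682 in the UUO group. It made up 1.98 to 2.20% of all summed FPKM in the adenine kidneys and 1.36 to 1.92% in the UUO kidneys, and ranked between 2 and 5 among all entries of those kidneys. The groups did not overlap, but control 2 stood at 10.5 times the mean of the other controls. Its log2 fold change stood at 6.42 (SE 0.88, adjusted p = 0.00103 by limma) in the adenine model and 5.06 (SE 0.37, adjusted p = 5.62e-05) in the UUO model. Without control 2 the former was 7.55.

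Control 2 was the highest of the controls for 7 of the 9 tested markers, all but Clu and Sox9. It held 2.81 times the mean of the other controls for Havcr1, 2.42 times for Lcn2, 1.83 times for Anxa2 and 1.64 times for Cd44. The same kidney had a summed FPKM of distal convoluted tubule markers of 41.9, beside 609 and 357 in the other controls. Its sum of 7 urothelial markers was 7.91, beside 0.800 and 1.52. Without this library the log2 fold change in the adenine model was 6.91 for Havcr1 and 7.49 for Lcn2, and the number of upregulated markers was still 6.

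Receptors and cleaving enzymes of osteopontin were followed in the list of partners. Itgb3, the integrin chain that pairs with the alpha V chain to bind osteopontin, was upregulated in both models, from 0.243, 0.120 and 0.110 to 2.12, 2.38 and 2.69 in the adenine group (log2 fold change 3.31, SE 0.29) and from 0.176, 0.304 and 0.281 to 1.97, 3.53 and 2.07 in the UUO group (2.86, SE 0.32). Itgav rose without passing the fold threshold, by 1.32 (SE 0.21) and 1.13 (SE 0.22) on the log2 scale. Mmp7, a matrix protease of injured tubules that cleaves osteopontin, was listed at 0 in all 3 controls and at 44.6, 50.2 and 76.5 in the adenine group. It was 0.183, 0.0442 and 0.128 in the shams and 49.4, 214 and 32.5 in the UUO group (log2 fold change 8.38, SE 0.68, adjusted p = 8.04e-05 by limma). Mmp7 had the largest log2 fold change of the list in both models.

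Clu was 42.0, 32.6 and 64.5 in the controls and 2273, 1175 and 1774 in the adenine group. In the shams it was 82.3, 68.3 and 77.6 and in the UUO group 1562, 1743 and 1381. The groups lay far apart, with the lowest adenine kidney at 18.2 times the highest control and the lowest UUO kidney at 16.8 times the highest sham. Clu had a log2 fold change of 5.23 (SE 0.32, adjusted p = 5.49e-05 by limma) in the adenine model and 4.36 (SE 0.12, adjusted p = 5.53e-06) in the UUO model. Clusterin, an extracellular chaperone, came second to Spp1 in abundance in all 6 treated kidneys. Control 2, the kidney with the highest Spp1 of the controls, had the lowest Clu of them, at 0.611 times the mean of the others.

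Cd44 was low in the reference groups, with 1.93, 4.16 and 3.14 in the controls and 5.29, 3.55 and 3.89 in the shams. It was 86.6, 81.1 and 89.5 in the adenine group and 56.5, 54.6 and 66.0 in the UUO group. The treated kidneys were close to one another, with an SD of 4.95% and 10.3% of the mean, and none overlapped with its reference group. The log2 fold change was 4.82 (SE 0.26, adjusted p = 3.79e-05 by limma) in the adenine model and 3.78 (SE 0.17, adjusted p = 1.32e-05) in the UUO model. Macrophages and T cells also carry CD44. All 8 macrophage markers (Cd68, Csf1r, Adgre1, C1qa, C1qb, C1qc, Cd163 and Mrc1) were upregulated in both models. Cd163 was below the filter level in every control and sham and entered the test only through the treated kidneys, which favours a call up. The summed FPKM of the 8 markers was 55.0 to 61.4 in the controls and 1198 to 1635 in the adenine group. In the shams it was 62.1 to 76.3, and in the UUO group 719 to 1114. Of 5 T cell markers, 2 were upregulated after adenine and 5 after UUO, and no tested marker of these lists was at 0 in all samples of a table. The part of these cells in the Cd44 values was not tested.

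Hyaluronan synthases, which make the ligand of CD44, were scarce. Has1 was at most 0.0574 in the controls and 0.231, 0.281 and 0.366 in the adenine group, and at most 0.0647 in the shams and 0.994, 0.373 and 0.207 in the UUO group. Has2 did not exceed 0.390 in any kidney. Neither passed the filter, so neither was tested. Has3 was tested in the UUO model alone and did not pass (log2 fold change 0.49, SE 0.33, adjusted p = 0.218).

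Cd24 was abundant before injury and rose by less than the markers above. Its FPKM was 96.0, 113 and 95.1 in the controls and 373, 290 and 294 in the adenine group, and 183, 185 and 125 in the shams and 448, 446 and 513 in the UUO group. Every treated kidney was above every reference kidney of its table. The mean was 3.15 times that of the controls and 2.85 times that of the shams, with a log2 fold change of 1.65 (SE 0.14, adjusted p = 0.000157 by limma) and 1.53 (SE 0.17, adjusted p = 0.000254). Siglec10, a receptor of CD24 on immune cells, had a log2 fold change of 4.87 (SE 0.48) in the adenine model and was below the filter in the UUO model.

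Prom1, the other surface protein of progenitor-like tubule cells, went the opposite way from Cd24. It was 29.0, 40.1 and 33.6 in the controls and 11.97, 10.4 and 13.0 in the adenine group, and 36.0, 33.3 and 40.2 in the shams and 10.4, 16.8 and 11.4 in the UUO group. All treated kidneys were below all reference kidneys, as were 23.0% of all genes after adenine and 15.7% after UUO. Prom1 fell by 1.52 on the log2 scale in the adenine model (SE 0.15, adjusted p = 0.000278 by limma) and by 1.52 in the UUO model (SE 0.19, adjusted p = 0.000441), and the reference means were 2.91 and 2.83 times the treated means. Median-of-ratios scaling gave -2.12 in the UUO model, past the fold threshold. Its relative Prom2 fell too, without passing the fold threshold, from 5.58, 12.5 and 9.20 to 3.91, 3.35 and 2.33 in the adenine model (-1.44, SE 0.33, adjusted p = 0.00885) and from 10.2, 7.15 and 6.26 to 2.71, 2.24 and 3.29 in the UUO model (-1.47, SE 0.23, adjusted p = 0.00129). The lower sums of proximal tubule and thick ascending limb markers given above moved with Prom1. Collecting duct sums did as well, at 282 to 458 in the controls and 80.8 to 160 in the adenine group. They were 310 to 371 in the shams and 87.7 to 125 in the UUO group. The part of these sums in the Prom1 values was not tested.

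Anxa2 was 46.3, 89.2 and 51.4 in the controls and 556, 446 and 518 in the adenine group, and 72.6, 77.9 and 70.8 in the shams and 732, 663 and 679 in the UUO group. The sham and UUO kidneys varied little, with an SD of 5.00% and 5.24% of the mean, and neither pair of groups overlapped. For Anxa2 the log2 fold change was 3.08 (SE 0.25, adjusted p = 0.000136 by limma) in the adenine model and 3.23 (SE 0.084, adjusted p = 5.37e-06) in the UUO model. S100a10, which encodes the p11 chain that joins annexin A2 in a plasminogen-binding complex, was 97.4, 164 and 119 in the controls and 486, 499 and 525 in the adenine group (2.02, SE 0.20), and 117, 128 and 93.6 in the shams and 797, 765 and 975 in the UUO group (2.91, SE 0.15). The ratio of Anxa2 to S100a10 was 0.432 to 0.542 in the controls and 0.894 to 1.14 in the adenine group, without overlap, and 0.611 to 0.756 in the shams and 0.697 to 0.918 in the UUO group, with overlap.

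The plasminogen system around annexin A2 changed unevenly. Plaur, the urokinase receptor, was upregulated from 1.69, 1.31 and 1.83 to 49.1, 23.6 and 34.4 in the adenine group (log2 fold change 4.34, SE 0.28) and from 0.932, 0.972 and 1.44 to 15.0, 11.4 and 6.72 in the UUO group (3.14, SE 0.32). Plat, tissue plasminogen activator, rose without passing the fold threshold, by 1.22 (SE 0.30) and 1.76 (SE 0.13). Plau, urokinase itself, did not pass in either model, at 241 to 287 in the controls and 246 to 313 in the adenine group (0.11, SE 0.13, adjusted p = 0.504) and 408 to 613 in the shams and 356 to 517 in the UUO group (-0.14, SE 0.20, adjusted p = 0.540).

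Among the 12 annexin genes searched, Anxa2 included, 5 of 10 tested were upregulated after adenine and 6 of 11 after UUO, with a median log2 fold change of 1.80 and 2.19. Anxa2 had the largest rise of the family in the adenine model, followed by Anxa5 at 2.63 (SE 0.37) and Anxa1 at 2.58 (SE 0.16). In the UUO model Anxa8 led with 6.88 (SE 0.65), from a mean of 0.259 to 34.4, and in the adenine model it was below the filter with 0.223 and 0.381. Anxa3 followed with 3.34 (SE 0.16). Urothelial markers moved with Anxa8, with a summed FPKM of 0.647 to 2.88 in the shams and 104 to 169 in the UUO group. In the UUO model 7 of 7 (Upk1a, Upk1b, Upk2, Upk3a, Upk3b, Krt5 and Krt14) were upregulated. All of these but Upk1a were below an FPKM of 0.5 in every sham. They entered the test only through the UUO kidneys, which favours a call up, so this count adds little to the sums. In the adenine model 0 of 2 tested urothelial genes were called by limma, 0 at an unadjusted p under 0.05, and the sums were 0.800 to 7.91 and 1.29 to 4.96. Their part was not tested. Anxa13, an annexin of polarized epithelia, was the 1 family member downregulated in each model, with -5.55 (SE 0.49) and -5.00 (SE 0.51).

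Sox9 did not pass the test in the adenine model and passed without the fold threshold in the UUO model. It was 5.36, 6.65 and 9.50 in the controls and 4.59, 9.64 and 7.71 in the adenine group, which overlapped, and the log2 fold change was 0.0044 (95% interval -0.76 to 0.77, adjusted p = 0.992 by limma), with -0.28 under median-of-ratios scaling. In the shams it was 12.7, 7.25 and 9.23 and in the UUO group 13.7, 16.3 and 17.7. The UUO kidneys were all above the shams, by 1.08 times for the nearest pair, as were 60.0% of all genes in that model and 45.0% of all genes in the adenine model. The log2 fold change in the UUO model was 0.74 (95% interval 0.22 to 1.25, adjusted p = 0.0191), near the median of 0.62 for all genes. This adjusted p exceeded 0.05 in 6 of 15 alternatives, and was 0.592 under median-of-ratios scaling, where the log2 fold change was 0.14, and 0.499 with quantile normalization. Without UUO 2, UUO 3 or sham 3 it was 0.0535, 0.0620 and 0.0514, and with no filter on low values 0.0894.

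Within the SOX family, 0 of 7 tested genes were upregulated in the adenine model by limma, with 1 higher at an unadjusted p under 0.05, and 3 of 8 in the UUO model. These 3 were Sox11 (log2 fold change 2.38, SE 0.36), Sox18 (2.35, SE 0.18), a factor of vessel endothelium, and Sox7 (2.31, SE 0.23), and with median-of-ratios scaling, quantile normalization or a pseudocount of 1 the count was 0. Sox11 was below the filter level in every sham, which favours its call up. The median log2 fold change of the family was -0.067 after adenine and 0.91 after UUO. The lowest were Sox13 at -1.24 (SE 0.17) in the adenine model and Sox6 at -0.86 (SE 0.27) in the UUO model.

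Vgf was at the edge of detection in every kidney. It was listed at 0, 0 and 0.0201 in the controls and at 0.0696, 0.0698 and 0.0330 in the adenine group. In the shams it was 0.0001, 0.0186 and 0.0216, where 0.0001 is the lowest value of that table, and in the UUO group 0.177, 0.184 and 0.0001. The adenine kidneys lay above the controls, whereas UUO 3 was at the floor of its table and overlapped with the shams. These levels were below the filter in all 12 kidneys, and no fold change is given. The granins Chga, Chgb, Scg2 and Scg3 did not pass the filter either. Their highest value was 0.970, for Chga in a control kidney, and Chga was at 0.0001 in all sham and UUO kidneys.

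Enzymes that process such precursors reached higher levels in some groups. Pcsk1, a prohormone convertase, was 0.0626, 0.0113 and 0.0235 in the controls and 5.60, 2.04 and 5.19 in the adenine group (log2 fold change 4.94, SE 0.44, adjusted p = 0.000179 by limma), and stayed below the filter in the UUO model, with 0.0194 to 0.0984 in the shams and 0.248 to 0.456 in the UUO group. Pcsk1n, the gene of its inhibitor, was 9.37, 5.91 and 7.86 in the controls and 0.843, 0.351 and 0.529 in the adenine group (-3.58, SE 0.32), and was not listed once in the other table. Pcsk2 was 3.76, 1.21 and 2.08 in the UUO group and at most 0.0552 in the shams (4.26, SE 0.47). It was 0, 0.0174 and 0.0242 in the controls and 0.493, 1.20 and 0.635 in the adenine group, below the filter, so the difference between the models was tested for neither convertase. Cpe, carboxypeptidase E, was 4.97, 2.31 and 6.88 in the shams and 65.7, 53.5 and 64.0 in the UUO group (3.79, SE 0.37), with a log2 fold change of 1.03 (SE 0.33, adjusted p = 0.0320) in the adenine model. The difference for Cpe between the models was 2.77 (SE 0.49, adjusted p = 0.00186). Scg5 fell without passing the fold threshold, by 0.94 (SE 0.21) and 1.43 (SE 0.32) on the log2 scale.

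**Figure D2:**
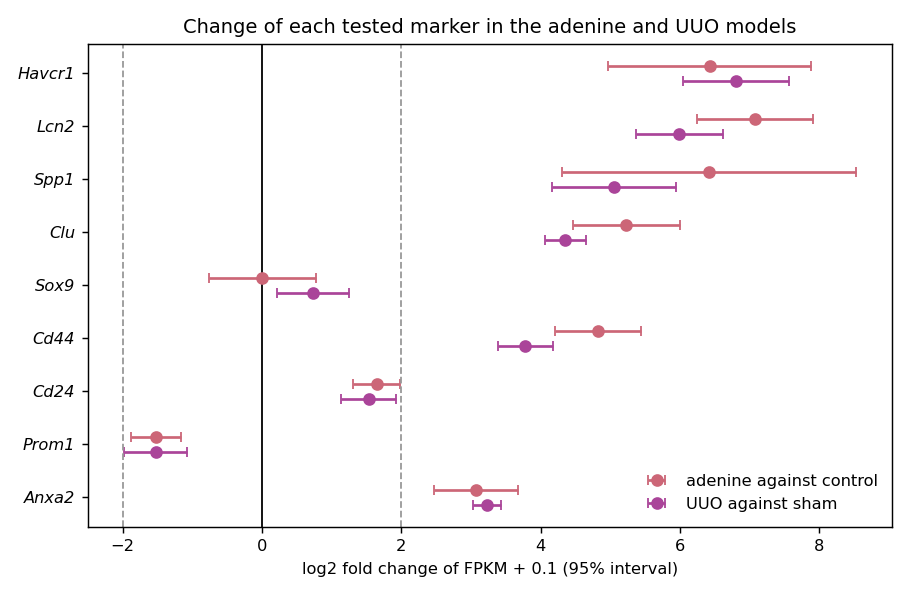
Log2 fold change of FPKM + 0.1 with its 95% interval for the 9 tested markers, adenine against control and UUO against sham, with dashed lines at the fold threshold of 2 in each direction. The intervals of Sox9 reach from -0.76 to 0.77 after adenine and from 0.22 to 1.25 after UUO, and Prom1 lies at -1.52 in both.

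The models were then compared by the difference of the log2 fold changes, UUO minus adenine, over 13486 symbols tested in both tables. None of the 9 markers passed an adjusted p under 0.05 and a difference of at least 2 (2.88% of all symbols did), 1 passed the adjusted p alone (27.0% of all symbols did), and 3 had an unadjusted p under 0.05. The marker that passed was Cd44, whose rise was smaller in the UUO model by a log2 difference of -1.04 (SE 0.31, 95% interval -1.70 to -0.37, adjusted p = 0.0250). Its adjusted p was 0.0581 without adenine 1 and 0.0639 without adenine 3. For Lcn2 the difference was -1.08 (95% interval -2.02 to -0.14, adjusted p = 0.0793) and for Clu -0.88 (95% interval -1.62 to -0.14, adjusted p = 0.0736). Both fell under an adjusted p of 0.05 in 4 of 21 alternatives, among them median-of-ratios scaling, with -1.39 for Lcn2 (adjusted p = 0.0483) and -1.19 for Clu (adjusted p = 0.0350). Without control 2 the Lcn2 difference was -1.498 (adjusted p = 0.00560), without sham 3 its adjusted p was 0.0224, and for Clu the adjusted p was 0.0273 without control 3 and 0.0266 without adenine 2.

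Spp1 differed by -1.36 (95% interval -3.43 to 0.70, adjusted p = 0.309), and without control 2 by -2.49 (adjusted p = 0.00167), past both thresholds. The remaining differences were 0.38 for Havcr1 (95% interval -1.11 to 1.86), 0.73 for Sox9 (-0.10 to 1.56), -0.12 for Cd24 (-0.59 to 0.35), -0.0002 for Prom1 (-0.52 to 0.52) and 0.15 for Anxa2 (-0.43 to 0.72), with none past the adjusted p. The tables were scaled separately and the medians of all genes differed, at 0.30 and 0.62, which a difference this small should be read against.

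**Figure D3:**
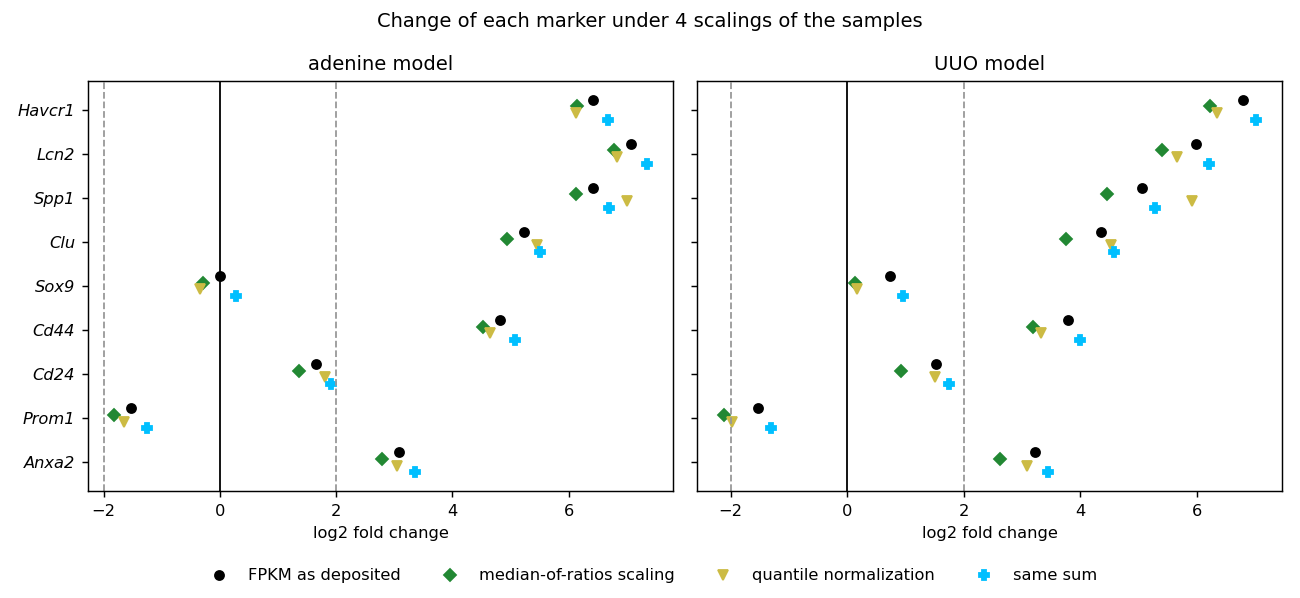
Log2 fold change of the 9 tested markers in each model with the FPKM as deposited, after median-of-ratios scaling, after quantile normalization and after scaling to the same sum, with dashed lines at 2 and -2. Every marker but Sox9 keeps its side of 0 in both panels, and Prom1 in the UUO model moves from -1.52 to -2.12 under median-of-ratios scaling.

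The order of the markers by FPKM, a level per transcript length, changed with injury. In the controls and shams Cd24 or Spp1 came first, Havcr1 was the lowest but for Vgf, and the 10 markers together made up 0.0472 to 0.145% of the summed FPKM. In the adenine kidneys they made up 2.54 to 2.90% and in the UUO kidneys 1.97 to 2.58%. Spp1 came first and Clu second in all 6 treated kidneys. Behind them Lcn2, Anxa2 and Cd24 followed, and neighbours exchanged places between rats: Lcn2 was above Anxa2 in 2 of 3 adenine kidneys and below it in all 3 UUO kidneys, and Havcr1 was above Cd44 in 1 of 3 adenine and in all 3 UUO kidneys. Sox9 was above Prom1 in 2 of 3 UUO kidneys and below it in every other kidney.

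Beyond the 10 markers, 36 other genes of tubular injury and repair were searched. Of 34 tested, 19 were upregulated after adenine and 25 after UUO (17 and 16 under median-of-ratios scaling), and none was downregulated by limma with both thresholds, with 1 and 2 lower at an unadjusted p under 0.05. Over all genes tested, 10.7% and 13.2% were upregulated. Lif was among those below the filter level in every reference kidney, which favours a call up. The median log2 fold change of the 34 genes was 2.28 and 2.50. The largest in the adenine model were Atf3, a stress-response transcription factor, at 4.65 (SE 0.30), the cytokine gene Lif at 4.63 (SE 0.34) and Tmsb10, an actin-binding thymosin, at 4.03 (SE 0.31). In the UUO model they were Atf3, with a mean FPKM of 29.8 in the UUO group, Cdkn1a, the cell-cycle inhibitor p21, at 3.76 (SE 0.26), and Lif at 3.62 (SE 0.20). Itgb8, an integrin chain that activates latent TGF-beta, was the lowest in both, at -1.66 (SE 0.51, adjusted p = 0.0274) and -1.44 (SE 0.44, adjusted p = 0.0227).

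A few of these genes split the models, and they are named here after their values were seen. The difference passed both thresholds for 2 of 34, Ccn2 and Krt19. Ccn2, connective tissue growth factor, had a mean FPKM of 50.5 in the controls and 42.4 in the adenine group, and of 47.2 in the shams and 241 in the UUO group (difference 2.67, SE 0.39, adjusted p = 0.000690). Krt19, a keratin of duct and urothelial cells, went from 44.3 to 32.5 after adenine and from 43.0 to 180 after UUO (difference 2.43, SE 0.31, adjusted p = 0.000312). Krt7 differed by 1.53 (SE 0.26, adjusted p = 0.00149). The urothelial markers given above moved with both keratins, and their part was not tested.

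**Figure D4:**
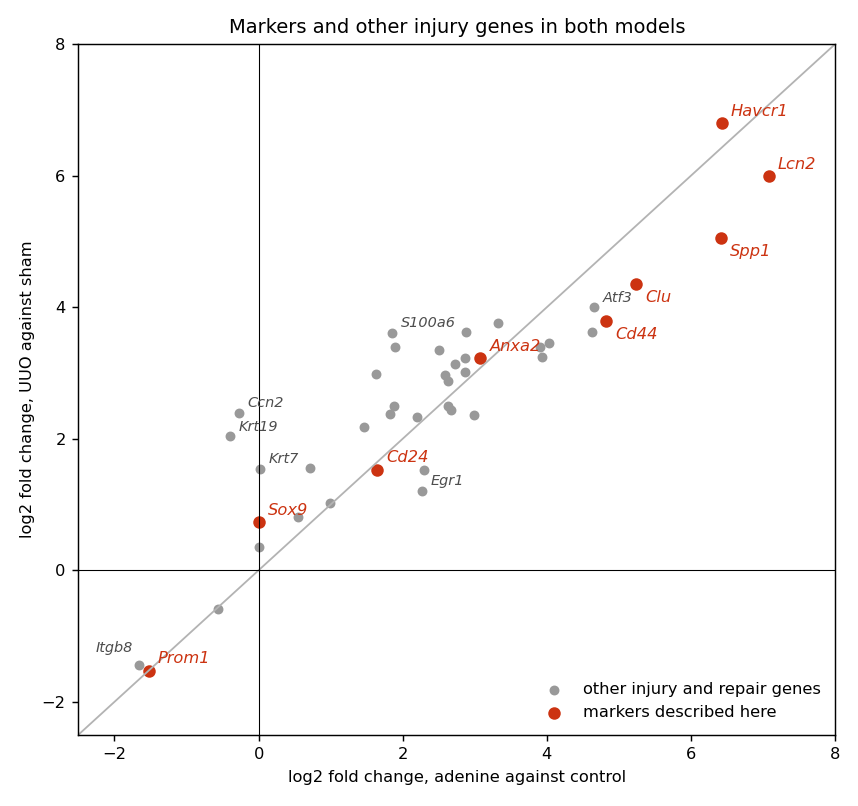
Log2 fold change in the adenine model (horizontal) against the UUO model (vertical) for the 9 tested markers, in red, and 34 other injury and repair genes, in grey, with a line of equal change. Havcr1, Lcn2 and Spp1 lie at the upper right end beyond all grey genes, Prom1 lies at the lower left near Itgb8, and Ccn2 and Krt19 lie far above the line.

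Among 37 genes for partners, receptors and processing enzymes of the markers, 12 of 32 tested were upregulated after adenine. After UUO it was 13 of 33. Over all genes tested, 10.7% and 13.2% were upregulated. Itgb3 and Mmp7 in both models, Siglec10 after adenine and Mmp3 after UUO were among those below the filter level in every reference kidney. Such genes entered the test only through the treated kidneys, which favours a call up, so these counts add little. Lrp2 was the 1 downregulated in each model, against 5.03% and 4.21% of all genes. The median log2 fold change was 1.306 and 1.296. After Mmp7, the largest in the adenine model were Lgals3, galectin-3 of macrophages and injured tubules, at 6.07 (SE 0.38), and Siglec10 at 4.87. In the UUO model Mmp3, a matrix metalloproteinase, followed at 4.93 (SE 0.36). Lgals3 rose by less in the UUO model, at 3.51 (SE 0.20), and the difference was -2.56 (SE 0.43, adjusted p = 0.00148). Mmp3 did not pass in the adenine model (0.52, SE 0.76, adjusted p = 0.578), and its difference was 4.40 (SE 0.85, adjusted p = 0.00281). Mmp9, another matrix metalloproteinase, named after its values were seen, was the other partner past both thresholds for the difference, at -6.01 (SE 0.96, adjusted p = 0.00106), with a log2 fold change of 4.74 (SE 0.86) after adenine and -1.27 (SE 0.42) after UUO. The macrophage marker sums given with Cd44 moved with Lgals3 as well, and their part was not tested.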

How the data were processed

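Poly(A) RNA of 12 kidneys was sequenced with a strand-marking kit. The submitters' processing notes name cutadapt 1.9, HISAT2 2.0.4, StringTie 1.3.4d, edgeR and DESeq2, and the genome build is not given in the sources used here. The authors deposited FPKM per gene, normalized to transcript length and mapped fragments, in 2 tables, and gave no read counts, so depth is unknown. FPKM values of low genes shared no common step that would give whole reads. Each table was fitted separately with limma 3.58.1 in R 4.3.3 (lmFit, eBayes with trend) on log2(FPKM + 0.1), a scale that understates the change of low genes, with Benjamini-Hochberg adjustment over all genes that reached an FPKM of 0.5 in at least 3 of 6 samples. The adjusted p threshold of 0.05 and the log2 fold change threshold of 2 are those of the study. Differences between the models were divided by the root of the summed squared standard errors. The 3 rats of a group were the replicates. With 3 rats against 3, an exact permutation test of a single gene cannot go below a p of 0.1, so p-values come from the fit across all genes. The code was tested on simulated data.

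The markers and the gene lists were chosen with earlier results of these data known. Genes named from a list are the 3 with the largest and the 1 with the smallest log2 fold change in each model, fixed partners of the markers and all granins, and genes named otherwise are said to be so. Some genes that this rule names are not reported here. Other lists served as cell type markers. Alternatives were other pseudocounts, filters, scalings, a fit with no trend, a replicate block and the omission of each sample.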

Additional observations from a re-analysis of the deposited data

Results flagged for a closer look

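Cd44 was upregulated in both models, but by less in the UUO model. It is listed here because the difference between the models passed the adjusted p threshold alone, as did 27.0% of all symbols. The log2 difference (UUO minus adenine) was -1.04 (SE 0.31, adjusted p = 0.0250 by Benjamini-Hochberg over 13486 symbols). It did not reach the difference threshold of 2. The adjusted p was 0.0581 without adenine 1 and 0.0639 without adenine 3. Of 8 macrophage markers, 3 rose by less in the UUO model at an adjusted p under 0.05, and 0 rose by more. These differences were -2.49 for Cd68, -1.06 for Csf1r and -1.64 for Cd163. Over all symbols 27.0% passed that threshold in either direction, so counts from lists this short say little. Of 5 T cell markers, 2 rose by more in the UUO model at that threshold, and 0 rose by less. Their differences were 1.40 for Cd3g and 1.80 for Cd8a. The part of these cells in the Cd44 difference was not tested. All 3 kidneys of each treated group showed the rise of Cd44. Groups of 3 rats were too small to look for outlying samples by a formal criterion.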

How the results depend on the processing

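Across 477 alternatives for 27 log2 fold changes and differences of single markers, 475 kept their direction where called and their side of the combined call by both thresholds, and 2 newly passed it: Prom1 in the UUO model under median-of-ratios scaling (-2.12) and the Spp1 difference without control 2 (-2.49). By the adjusted p alone, the Sox9 change in the UUO model exceeded 0.05 in 6 of 15 alternatives and the Cd44 difference in 2 of 21, and the Lcn2 and Clu differences were under 0.05 in 4 of 21 each. The count of upregulated markers was 6 in each model under all 15 alternatives. The count that differ between the models with both thresholds was 0, and 0 to 1 when a sample was left out, with 1 without control 2.

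Among other injury and repair genes, quantile normalization gave 1 downregulated in each model, and median-of-ratios scaling gave 16 upregulated in the UUO model instead of 25. For the partners in the UUO model the count downregulated was 2 with median-of-ratios scaling, 3 with quantile normalization, 0 with the same sum, and 0 to 1 when a sample was left out, with 0 without UUO 1. Granin-list counts were 2 upregulated in the adenine model with no filter, and in the UUO model 1 upregulated with a pseudocount of 1 and 1 downregulated with quantile normalization. The SOX genes upregulated in the UUO model were 0 with median-of-ratios scaling, quantile normalization or a pseudocount of 1. Rats with the same number are different animals, and the labels give no pairing between them. The deviations of same-numbered rats correlated at -0.123 to -0.049 after adenine and 0.050 to 0.105 after UUO. These values cannot show whether a batch followed the number. Every sample correlated best with its own number in the UUO model and least with its own number in the adenine model. With the replicate block, 2352 genes were called in the adenine model instead of 2360 and 2609 in the UUO model instead of 2613, the number of upregulated markers was 6 in each, and the adjusted p of the difference between models fell under 0.05 for Lcn2 (0.0367) and Clu (0.0332). Depth is unknown, which limits genes near the lowest listed value such as Vgf.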
